A study of Mus musculus with 12 samples.

Results

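The drug efflux transporters described here are 8 mouse genes of the ATP-binding cassette (ABC) superfamily, chosen by name as the classical multidrug resistance transporters: Abcb1a, Abcb1b, Abcc1, Abcc2, Abcc3, Abcc4, Abcc5 and Abcg2. They are 8 of the 55487 genes in the count table. The rule that picks them is a list of names and uses no measured value, but it was set when earlier results of these data were known. Their RNA was measured by sequencing in wild-type SCC7 cells, a mouse squamous carcinoma line, kept for 24 h in macrophage-conditioned medium. Bone-marrow-derived macrophages (BMDM) had first been given control medium (the source of M0 CM), 20 ng/ml interferon-gamma (M1 CM), 20 ng/ml interleukin-4 (M2 CM) or a mix with 75% conditioned medium of SCC7 cells (TAM CM), in each case for 24 h. CM stands for conditioned medium, and TAM for tumour-associated macrophage. Each medium had 3 libraries, 12 in all, of one cell line, with no library of cells kept in plain medium among them. The labels do not state that libraries of a medium came from separate cultures, so p-values measure only how much these samples vary, and that variation may be technical. Genotype was wild type in every library. The third M2 CM library is labelled as melanoma, the other 11 as squamous carcinoma.

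ABC transporters are membrane pumps that bind and hydrolyse ATP to move substrates across a bilayer. Those of the multidrug group sit largely in the plasma membrane and carry drugs and drug conjugates out of the cell, and their overexpression in cancer lines is a textbook route to resistance against several drugs at once. P-glycoprotein, encoded in mice by the paired genes Abcb1a and Abcb1b, exports bulky hydrophobic compounds such as anthracyclines, taxanes and vinca alkaloids. The Abcc genes encode multidrug resistance-associated proteins, which favour organic anions and conjugates with glutathione, glucuronate or sulfate, and Abcg2 encodes the breast cancer resistance protein, a half-transporter that works as an oligomer.

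Library totals ran from 18996937 to 22596630 counts, and 14509 genes passed the filter on low counts. Levels are counts per 1000000 (CPM) on library sizes scaled by TMM, given as mean ± SD of n = 3 libraries. A gene is called where edgeR's quasi-likelihood test gave an adjusted p under 0.05 (Benjamini-Hochberg adjustment across the genes tested). Pearson's r of log2 CPM between libraries of a medium lay between 0.9924 and 0.9938. Of 12 squamous epithelial markers Krt8 and Krt18 carried nearly the whole sum, which was 376, 169, 719 and 97.2 CPM in M0, M1, M2 and TAM CM. Epcam, Perp and Krt6a had no counts, and Krt5, Krt14, Krt17 and Cdh1 were near 0. Mean levels of Trp63, Dsp and Sfn were at most 1.79 CPM in any medium. The sum thus reflects simple keratins, and the squamous label is the one given with the samples. The summed macrophage markers ranged over 28.8 to 30.6 CPM in M0 CM, 38.2 to 45.0 in M1 CM, 28.5 to 31.5 in M2 CM and 44.2 to 54.6 in TAM CM. Most of that sum was Cd14, while the leukocyte marker Ptprc, the macrophage marker Adgre1 and the integrin Itgam had at most 6 counts per medium, and 6 of the 12 markers were under 1 CPM in every library. Like the sum, Cd14 was highest in TAM CM (40.9 CPM) and next in M1 CM (26.1 CPM). Cd14 was at 15.9 CPM in M2 CM and 17.3 CPM in M0 CM, where the mean sums were 30.1 and 29.8 CPM. Cd68 (3.89 CPM in M0 CM and 2.89 CPM in TAM CM) and Mertk (6.04 and 2.56 CPM) were lower in TAM CM. Lyz2 was higher there (0.831 and 1.31 CPM). In M1 CM and M2 CM, Cd68 was at 6.99 and 5.03 CPM and Mertk at 4 and 6.04 CPM. Mrc1 was at 2.6 CPM in M1 CM and 1.9 CPM in M2 CM, against 0.681 CPM in M0 CM. Aif1 was at 1 CPM in M1 CM and 0.175 CPM in M2 CM, against 0.512 CPM in M0 CM. The part of these markers in the differences below was not tested. In such bulk libraries, fewer cells of a type and less RNA per cell cannot be told apart. Fibroblast markers summed to 2240 CPM in M0 CM and 1110 to 1320 CPM in the other media, endothelial markers to at most 1.17 CPM. From M0 CM to TAM CM, the fibroblast markers Col1a1 (483 to 203 CPM), Col1a2 (1480 to 554 CPM) and Pdgfrb (40.7 to 13.4 CPM) were lower. Pdgfra (236 to 320 CPM) and Dcn (2.82 to 16.9 CPM) were higher, and Lum and Thy1 had no counts. Melanocyte markers summed to 5.57 to 7.34 CPM in the M2 CM libraries, the one labelled melanoma included, and to 7.21 to 13 CPM elsewhere. Nearly the whole sum was Mitf (6.37 CPM in M2 CM), and 6 of the 7 markers were under 1 CPM in every library. The library labelled melanoma was kept, and no call on a member changed without it.

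Transcription start windows are shown for the 3 transporters whose RefSeq and GENCODE starts coincide, Abcb1b and Abcc4, which were highest in TAM CM, and Abcc5, which was highest in M0 CM. Each is the 250 bases before the start, from RefSeq on GRCm38.p6 (the same coordinates as mm10), on the strand of the gene and 5′ to 3′. Capitals mark matches, on either strand, to the antioxidant response element TGACNNNGC, the core of the aryl hydrocarbon receptor element GCGTG, the GC box GGGCGG, and the STAT element (GAS) TTCNNNGAA. The interferon-stimulated response element (ISRE) and the stress element of ATF and C/EBP proteins TGATGNAA were searched too and had no match in any window of a member. The windows are chr5:8797897-8798146 (plus strand), chr14:118706220-118706469 (minus strand) and chr16:20426395-20426644 (minus strand).
Abcb1b: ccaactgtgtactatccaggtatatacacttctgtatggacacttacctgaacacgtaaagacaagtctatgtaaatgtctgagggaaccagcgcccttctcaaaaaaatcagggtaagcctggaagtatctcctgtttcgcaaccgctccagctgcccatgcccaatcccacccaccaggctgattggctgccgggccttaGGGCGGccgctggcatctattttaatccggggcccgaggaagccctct
Abcc4: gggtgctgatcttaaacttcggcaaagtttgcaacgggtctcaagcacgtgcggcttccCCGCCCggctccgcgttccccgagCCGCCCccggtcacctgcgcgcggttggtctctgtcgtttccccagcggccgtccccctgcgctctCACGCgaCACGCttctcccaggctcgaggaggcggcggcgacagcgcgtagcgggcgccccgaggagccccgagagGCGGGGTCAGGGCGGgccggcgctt
Abcc5: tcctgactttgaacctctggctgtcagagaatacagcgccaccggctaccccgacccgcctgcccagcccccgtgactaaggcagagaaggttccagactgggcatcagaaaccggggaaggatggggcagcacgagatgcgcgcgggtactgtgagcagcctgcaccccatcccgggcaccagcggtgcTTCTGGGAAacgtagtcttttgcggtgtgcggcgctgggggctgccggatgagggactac
The Abcc4 window held 1 antioxidant element match, from 25 to 17 bases before the start, next to a GC box at 16 to 11 bases, with 2 further GC boxes and 2 aryl hydrocarbon receptor cores. No motif of the set overlapped another there. Abcb1b held a single GC box, 48 to 43 bases before the start, and Abcc5 a single GAS match, 60 to 52 bases before it. Among 32851 windows of all RefSeq starts, 10.2% held the antioxidant element, 28.2% the aryl hydrocarbon receptor core, 32.7% a GC box, 7.02% a GAS match, 2.98% the interferon element and 3.45% the stress element. Of the windows not printed, that of Abcc2 held 1 antioxidant element match (98 to 90 bases before its start), 2 of the 3 windows of Abcg2 held GC boxes and the third nothing, and that of Abcb1a held no match. A later start of Abcc4 also had 1 antioxidant element match, 23 to 15 bases before it. A match describes letters only. Windows were found for 6 of the 8 genes. Abcc1 and Abcc3 had none in the table, and the RefSeq start of Abcb1a lies 93.0 kb before the GENCODE start, so its window is not printed.

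In SCC7 cells 6 of the 8 transporter genes were measurable, with at least 97 counts in every library, and all 6 differed among the media by edgeR's quasi-likelihood test of the 4 media together, where 83.5% of all tested genes also passed. Both P-glycoprotein genes, Abcc1 and Abcc4 rose in TAM CM against M0 CM, and Abcc5 and Abcg2 fell. The size of the differences ran from 1.37-fold between the highest and lowest medium for Abcc5 to 5.96-fold for Abcb1a. Abcc2 and Abcc3 were close to silent in every medium and were not tested.

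**Figure D1:**
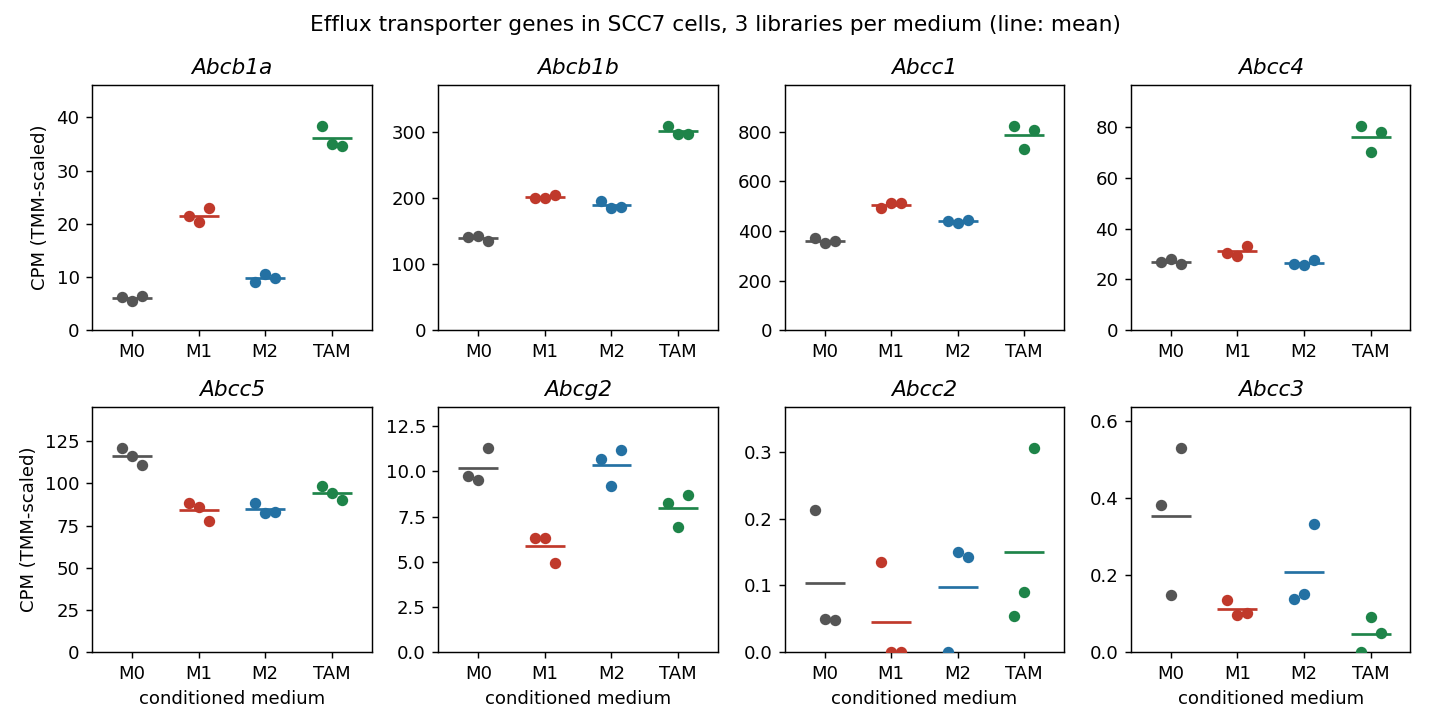
Each panel plots the CPM of 1 transporter gene (vertical axis, from 0, TMM-scaled) in the 3 libraries of each conditioned medium (horizontal axis), with a line at the mean. Abcb1a, Abcb1b, Abcc1 and Abcc4 are highest in TAM CM, Abcc5 is highest in M0 CM, Abcg2 is lowest in M1 CM, and Abcc2 and Abcc3 stay under 0.6 CPM.

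Abcb1a (ENSMUSG00000040584, chromosome 5, 8660077 to 8748575, plus strand, GRCm38 as for the genes that follow) is the P-glycoprotein gene that dominates in the mouse gut and brain capillaries. It was at 6.29, 5.42 and 6.41 CPM in the M0 CM libraries and at 9.10, 10.5 and 9.84 CPM in M2 CM. The M1 CM libraries stood at 21.4, 20.3 and 22.9 CPM and the TAM CM libraries at 38.4, 35.0 and 34.7 CPM. No medium overlapped another, and the order from low to high was M0, M2, M1, TAM. Against M0 CM, Abcb1a rose 5.94-fold in TAM CM (log2 fold change 2.57, SE 0.09, edgeR quasi-likelihood adjusted p = 7.16e-30), 3.55-fold in M1 CM (1.83, SE 0.09) and 1.62-fold in M2 CM (0.70, SE 0.11, adjusted p = 3.9e-07). It was also 1.67-fold higher in TAM CM than in M1 CM and 3.67-fold higher than in M2 CM.

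Abcb1b (ENSMUSG00000028970, chromosome 5, 8798147 to 8866315, plus strand) is the neighbouring P-glycoprotein gene, the form known from mouse adrenal gland and pregnant uterus. Its M0 CM libraries were at 141, 142 and 135 CPM and its M2 CM libraries at 195, 184 and 187 CPM. In M1 CM it was at 200, 200 and 205 CPM, and in TAM CM at 309, 297 and 297 CPM. TAM CM stood clear above the other 3 media and M0 CM clear below them, while M1 CM (201 ± 2.81 CPM) and M2 CM (189 ± 5.48 CPM) lay between them without overlapping. Abcb1b rose 2.16-fold in TAM CM (log2 fold change 1.11, SE 0.03, edgeR quasi-likelihood adjusted p = 3.64e-32), 1.45-fold in M1 CM and 1.35-fold in M2 CM. The small difference between M2 CM and M1 CM (0.936-fold, adjusted p = 0.0156) was lost without the second M2 CM library (adjusted p = 0.0712, the upper end of a range from 0.00854 over 19 alternatives).

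The proportion between the P-glycoprotein genes is given by library. Abcb1a made up 4.28%, 3.67% and 4.54% of the pair's counts in the M0 CM libraries and 4.47%, 5.41% and 5% in M2 CM. It made up 9.67%, 9.23% and 10% in M1 CM and 11.1%, 10.6% and 10.5% in TAM CM. The shares of M1 CM and TAM CM lay wholly above those of M0 CM and M2 CM, whereas M0 CM and M2 CM overlapped. An exact two-sided permutation test over libraries gave p = 0.1 for each pair of media other than M2 CM against M0 CM (p = 0.2), and 0.1 is the smallest value that 3 libraries against 3 can give. These 6 permutation p-values are unadjusted, and none passes a threshold of 0.05.

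**Figure D2:**
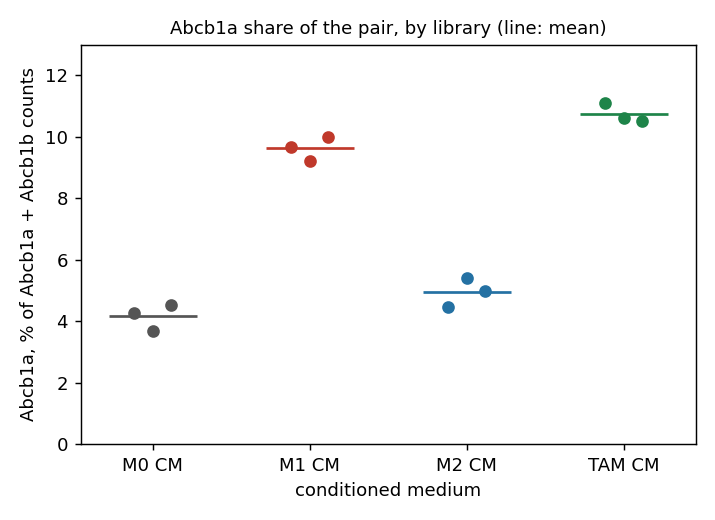
The vertical axis gives the percent of the summed Abcb1a and Abcb1b counts that belong to Abcb1a, from 0, and the horizontal axis the conditioned medium, with 1 point per library and a line at the mean of 3. The mean share is 4.16 ± 0.449% (SD) in M0 CM, 4.96 ± 0.474% in M2 CM, 9.65 ± 0.408% in M1 CM and 10.7 ± 0.315% in TAM CM.

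Reads may be split between the pair. Of the stretches of 50 bases in the longest coding transcript of Abcb1b, 18% also occur in that of Abcb1a, and 8.72% of those of 100 bases do. Read length and the handling of reads with several hits were not given in the sources at hand, so the single-gene values, and the share, are uncertain to that extent. With both counts summed, the pair rose 2.32-fold in TAM CM (log2 fold change 1.21, SE 0.03), 1.53-fold in M1 CM and 1.37-fold in M2 CM against M0 CM, each called by edgeR's quasi-likelihood test. Abcb4, the third gene of this cluster, which encodes a phospholipid floppase of bile, had 14 counts in the 12 libraries together. Gm42686, a gene model lying antisense across 553 bases of Abcb1a exon, had 24 counts in all, and Gm5106, antisense to 143 bases of Abcb1b exon, had 4 to 12 per library.

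Abcc1 (ENSMUSG00000023088, chromosome 16, 14361558 to 14475737, plus strand) encodes MRP1, an exporter of glutathione conjugates, leukotrienes and oxidised glutathione found in most cell types. It was at 370, 350 and 361 CPM in M0 CM and at 440, 434 and 445 CPM in M2 CM. M1 CM had 493, 513 and 511 CPM and TAM CM 824, 729 and 806 CPM. The media did not overlap, and their order was that of Abcb1a. Abcc1 rose 2.18-fold in TAM CM (log2 fold change 1.13, SE 0.03, edgeR quasi-likelihood adjusted p = 2.47e-30), 1.40-fold in M1 CM and 1.22-fold in M2 CM, and was 1.56-fold higher in TAM CM than in M1 CM (adjusted p = 4.14e-21).

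Abcc4 (ENSMUSG00000032849, chromosome 14, 118482692 to 118706219, minus strand) encodes MRP4, which exports cyclic nucleotides, prostaglandins and nucleotide analogue drugs. Its levels were 26.7, 28 and 26.1 CPM in M0 CM, 26.3, 25.9 and 27.8 CPM in M2 CM and 30.6, 29.4 and 33.3 CPM in M1 CM. In TAM CM they were 80.6, 70.1 and 78.3 CPM. Only the TAM CM libraries stood far from the rest, and those of M2 CM and M0 CM overlapped. Abcc4 rose 2.83-fold in TAM CM against M0 CM (log2 fold change 1.5, SE 0.06, edgeR quasi-likelihood adjusted p = 8.47e-28), 2.45-fold against M1 CM and 2.86-fold against M2 CM. In M2 CM against M0 CM the fold was 0.990, with an interval of ± 2 SE from 0.904 to 1.08. The 1.15-fold rise in M1 CM (adjusted p = 0.00543) was lost without the third M1 CM library (adjusted p = 0.0562) and with unscaled library sizes (0.059), in a range from 0.00221 to 0.059 over 19 alternatives.

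Abcc5 (ENSMUSG00000022822, chromosome 16, 20331303 to 20426394, minus strand) encodes MRP5, an exporter of cyclic nucleotides and nucleotide analogues. The M0 CM libraries had 121, 116 and 111 CPM, those of M1 CM 88.5, 86.0 and 77.9 CPM, those of M2 CM 88.4, 82.4 and 83.1 CPM and those of TAM CM 98.4, 94.0 and 89.9 CPM. All 9 libraries of the other media lay below the lowest of M0 CM. Abcc5 fell to 0.728-fold in M1 CM (log2 fold change -0.46, SE 0.04, edgeR quasi-likelihood adjusted p = 2.66e-12), 0.731-fold in M2 CM and 0.813-fold in TAM CM (-0.30, SE 0.04, adjusted p = 7e-08). M2 CM against M1 CM gave 1.01-fold with an interval of ± 2 SE from 0.943 to 1.07. TAM CM was slightly above both, 1.12-fold over M1 CM (adjusted p = 0.00208) and 1.11-fold over M2 CM (adjusted p = 0.00313).

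Abcg2 (ENSMUSG00000029802, chromosome 6, 58584523 to 58695676, plus strand) encodes an exporter of urate, porphyrins and drugs such as topotecan, and marks the dye-excluding side population in many tissues. It was at 9.74, 9.50 and 11.3 CPM in M0 CM and at 10.7, 9.18 and 11.2 CPM in M2 CM. M1 CM had 6.30, 6.30 and 4.96 CPM and TAM CM 8.24, 6.91 and 8.71 CPM. M0 CM and M2 CM overlapped, TAM CM lay just under them, and M1 CM was lowest. Abcg2 fell to 0.578-fold in M1 CM against M0 CM (log2 fold change -0.79, SE 0.12, edgeR quasi-likelihood adjusted p = 4.07e-07), and M2 CM was 1.77-fold above M1 CM (adjusted p = 1.73e-07). Against M0 CM, M2 CM gave 1.02-fold with an interval of ± 2 SE from 0.870 to 1.2. The fall to 0.780-fold in TAM CM (log2 fold change -0.36, SE 0.12, adjusted p = 0.00736) was lost without the third M0 CM library (0.062) and without the second TAM CM library (0.0776, the highest of a range that started at 0.000806). Without that TAM CM library the lower level against M2 CM (0.764-fold, adjusted p = 0.00405) was lost as well (adjusted p = 0.0554, the highest of 19 alternatives, the lowest being 0.00159).

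Abcc2 (ENSMUSG00000025194, chromosome 19, 43782192 to 43840740, plus strand) encodes MRP2, the apical conjugate pump of hepatocytes. It had 7, 3, 6 and 9 counts summed over the libraries of M0, M1, M2 and TAM CM. Abcc3 (ENSMUSG00000020865, chromosome 11, 94343295 to 94392997, minus strand) encodes MRP3, a basolateral exporter of glucuronides and bile salts. It had 23, 7, 13 and 3 counts in the same order. Its M0 CM libraries, at 0.383, 0.149 and 0.530 CPM, lay above those of TAM CM, at 0, 0.0904 and 0.0509 CPM. The ratio of Abcc3 in M0 CM to TAM CM was 7.16, with an exact binomial 95% interval from 2.16 to 37.2 that covers counting error only, and a fit with no filter on low counts called it (edgeR quasi-likelihood adjusted p = 0.00918), while no comparison of Abcc2 was called there. These intervals and counts limit both genes to descriptions.

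**Figure D3:**
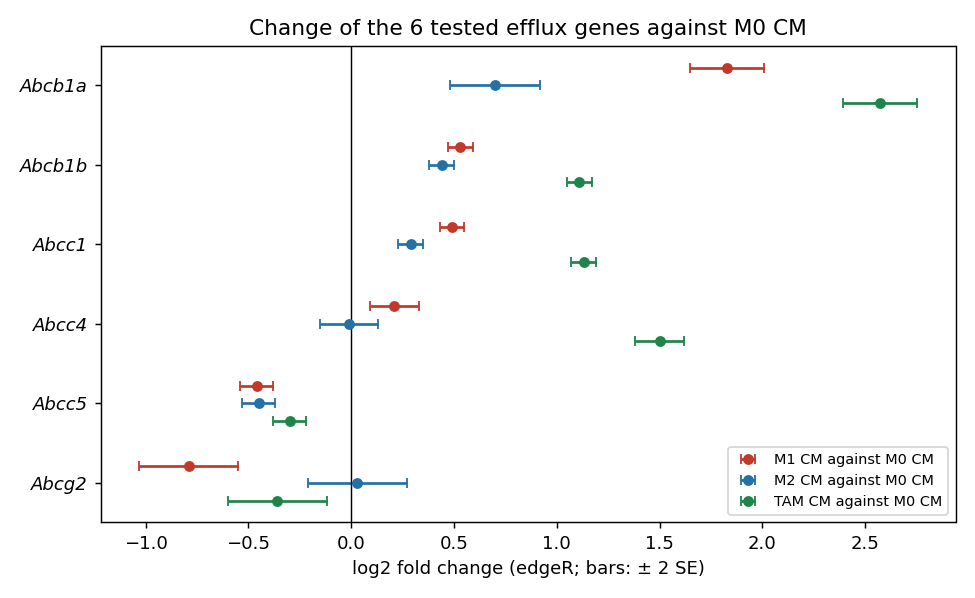
Points give the log2 fold change (horizontal axis) of each of the 6 tested transporter genes (vertical axis) in M1, M2 and TAM CM against M0 CM, with bars of ± 2 SE from edgeR and a line at 0. Abcb1a, Abcb1b, Abcc1 and Abcc4 lie farthest right in TAM CM, from 1.11 to 2.57, and Abcc5 lies left of 0 in all 3 media, from -0.46 to -0.30.

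Counted by comparison, 4 of the 6 tested members were higher and 2 lower in TAM CM than in M0 CM, where 35.1% of all tested genes were higher and 34.9% lower, 70.0% in all. M1 CM against M0 CM also gave 4 higher and 2 lower (27.7% and 25.6% of all genes, 53.4% in all). M2 CM against M0 CM gave 3 higher and 1 lower (21.0% and 18.5%, 39.4% in all). The libraries of the groups did not overlap for 6, 6 and 4 members, beside 73.1%, 58.8% and 49.5% of genes in TAM, M1 and M2 CM. The 3 comparisons share the M0 CM libraries. The median log2 fold change of the tested members was 1.12 in TAM CM, 0.35 in M1 CM and 0.16 in M2 CM, where that of all tested genes was 0.00, 0.01 and 0.00. With unscaled library sizes the calls over all genes shifted downwards. For M1 CM they went from 4023 higher and 3719 lower to 3219 and 4626. For M2 CM they went from 3042 and 2681 to 2201 and 3653. For TAM CM they went from 5089 and 5067 to 4300 and 5891. The members then called were 3 higher and 2 lower for M1 CM, 3 and 1 for M2 CM, and 4 and 2 for TAM CM.

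Between the stimulated media, all 6 tested members were higher in TAM CM than in M1 CM, with folds from 1.12 for Abcc5 to 2.45 for Abcc4 (32.8% of tested genes were higher, 34.4% lower, 67.2% in all). TAM CM against M2 CM had 5 members higher and Abcg2 lower (34.3% and 34.1% of genes, 68.4% in all). In M2 CM against M1 CM, Abcg2 was higher and 4 members were lower (27.8% and 28.4% of genes, 56.2% in all), the lowest being Abcb1a at 0.456-fold. The libraries did not overlap for 6 members in TAM CM against M1 CM (69.5% of genes), 6 in TAM CM against M2 CM (71.3%) and 5 in M2 CM against M1 CM (59.8%).

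Per kilobase of exon, which allows genes to be compared, Abcc1 was the most abundant of the 8 in all media, at 23.9 ± 0.634 CPM per kb in M0 CM and 52.1 ± 3.36 in TAM CM. Abcb1b came next, at 17.4 ± 0.507 and 37.6 ± 0.880 CPM per kb. In M0 CM they were followed by Abcc5 (10.8 ± 0.465) and Abcc4 (4.21 ± 0.151), and then by Abcg2 (1.25 ± 0.118) and Abcb1a (1.10 ± 0.0986), whose libraries overlapped per kb of exon. With the longest coding transcript as the length they did not overlap, at 1.78 ± 0.169 for Abcg2 and 1.21 ± 0.108 CPM per kb for Abcb1a. Abcb1a was above Abcg2 by mean level in the other 3 media, at 6.57 ± 0.373 against 0.976 ± 0.114 CPM per kb in TAM CM. In M2 CM the longest coding transcript gave 1.97 ± 0.143 for Abcb1a and 1.82 ± 0.185 for Abcg2, with overlapping libraries. Abcc4 was above Abcc5 in TAM CM, at 12 ± 0.864 against 8.81 ± 0.397 CPM per kb, but this order turned with the longest coding transcript as the length, at 13.4 ± 0.966 against 16.2 ± 0.730. The other places in the order were the same with both lengths.

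**Figure D4:**
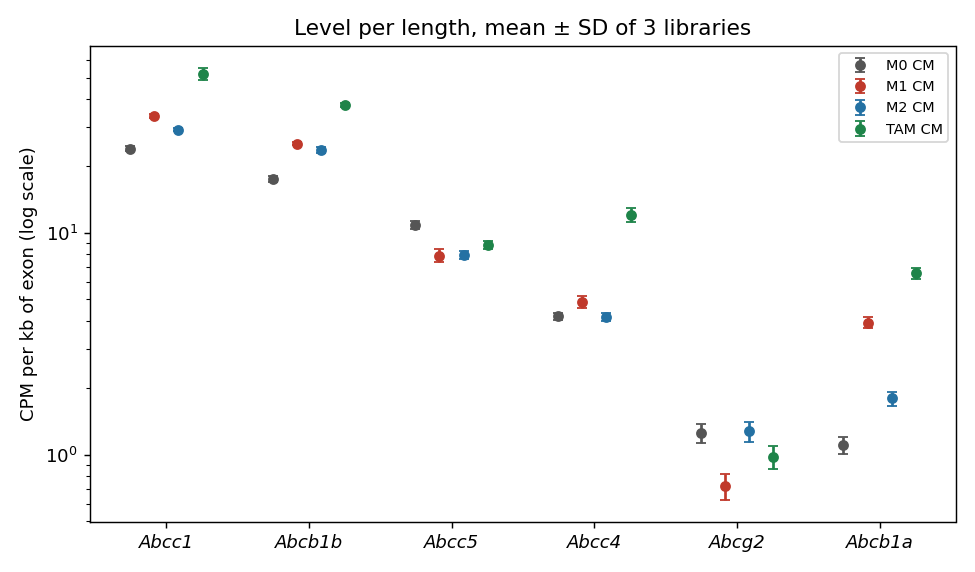
The vertical axis is the level in CPM per kb of exon on a log scale, as mean with bars of ± SD over 3 libraries, for the 6 transporter genes on the horizontal axis in each conditioned medium (colours). Abcc1 and Abcb1b lead in every medium, and Abcb1a moves from 1.10 CPM per kb in M0 CM to 6.57 in TAM CM.

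Genes with the most similar pattern were sought for the 3 transporters with the widest range between media. The search covered 10158 genes with at least 5 CPM in some medium and left out predicted (Gm or Rik) and unnamed genes. Similarity was measured by Pearson's r of log2 CPM over the 12 libraries. These r values mostly reflect the 4 medium means and carry no test. Closest to Abcb1a were Slc16a10, an aromatic amino acid transporter (r = 0.993), Sat1, which acetylates polyamines (0.992, at 60.0, 131, 73.7 and 193 CPM in M0, M1, M2 and TAM CM), and the endosomal protein gene Plekhf2 (0.992). Closest to Abcc1 were the lipid kinase gene Pip5k1a and the aminoacyl-tRNA synthetase genes Iars and Yars (each 0.995), Yars being at 125, 184, 152 and 300 CPM. Closest to Abcc4 were Cept1, of phospholipid synthesis, Glce, of heparan sulfate synthesis, and Ugt1a7c, a glucuronosyltransferase (each 0.994). Ugt1a7c, which shares exons with the other Ugt1a genes, was at 10.9, 13.2, 10.9 and 29.0 CPM in that order of media.

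The lists that follow are read beside the shares of all tested genes. Of 30 further ABC genes of the plasma membrane or of lipid transport, 15 were tested, and 7 were higher and 4 lower in TAM CM than in M0 CM (35.1% and 34.9% of all tested genes), with a median log2 fold change of 0.31. Abca8b, a sterol and lipid transporter gene, went from 14.2 ± 1.81 to 79.2 ± 2.24 CPM (log2 fold change 2.47, SE 0.07) and was at 33.5 ± 1.99 CPM in M1 CM. Abca8a, its near copy, went from 0.691 ± 0.147 to 6.65 ± 0.587 CPM, and reads shared between them make each uncertain. Abca4, the retinoid flippase known from photoreceptors, went from 0.208 ± 0.110 to 10.6 ± 0.779 CPM. The cholesterol exporters showed another pattern, with Abcg1 higher in M1 CM (2.03 ± 0.471 against 0.444 ± 0.183 CPM, edgeR quasi-likelihood adjusted p = 1.48e-06) and Abca1 lower in M2 CM (1.70 against 3.08 CPM, adjusted p = 0.00179). In M1 CM the list had 5 higher and 1 lower (27.7% and 25.6% of all genes), and in M2 CM 1 higher and 7 lower (21.0% and 18.5%).

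Of 11 ABC transporters of organelles, 2 were higher and 8 lower in TAM CM (35.1% and 34.9% of all tested genes), with a median log2 fold change of -0.49. Abcd4, a lysosomal carrier of cobalamin, fell from 66.2 ± 1.54 to 28.3 ± 1.56 CPM. Tap1 and Tap2, the peptide transporter of antigen presentation, were at 408 ± 3.31 and 256 ± 13.5 CPM in M1 CM, at 31.5 ± 2.71 and 73.9 ± 3.84 in M0 CM, and lower again in TAM CM, at 22.6 ± 1.34 and 42.0 ± 2.19. Of the organelle genes, M1 CM had 3 higher and 5 lower (27.7% and 25.6% of all genes) and M2 CM 1 higher and 3 lower (21.0% and 18.5%), the 1 higher call being lost without the third M2 CM library. Of the 4 ABC proteins with no transport role, which act at the ribosome, 2 had higher and 1 lower RNA in TAM CM. The shares of all tested genes there were 35.1% and 34.9%, and the median log2 fold change of the 4 was 0.1. The counts were 1 and 1 in M1 CM (27.7% and 25.6% of all genes), and 3 and 0 in M2 CM (21.0% and 18.5%). Abcf2 rose from 240 ± 10.3 to 458 ± 11.6 CPM in TAM CM and Abcf1 fell from 263 ± 7.21 to 233 ± 3.08 CPM.

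**Figure D5:**
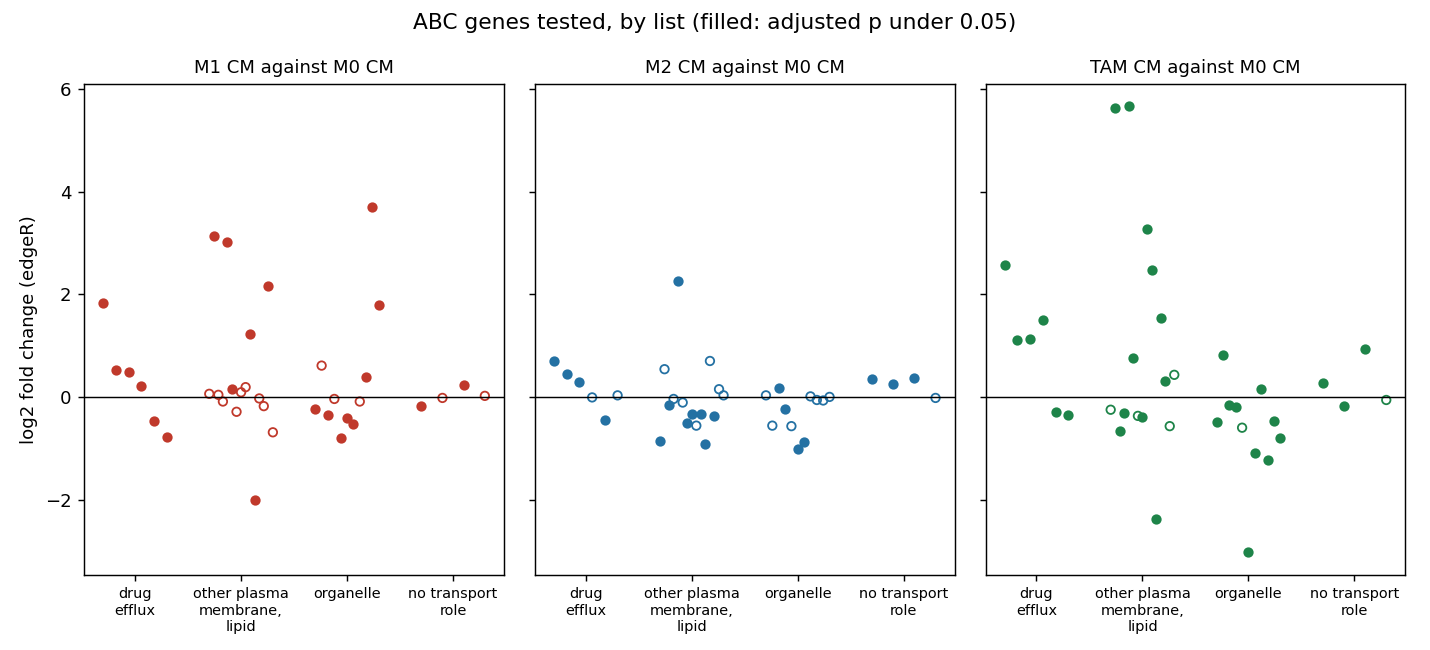
Each point is 1 tested ABC gene, with its edgeR log2 fold change against M0 CM on the vertical axis and the lists along the horizontal axis, in a panel for each of M1, M2 and TAM CM; filled points have an adjusted p under 0.05. In the TAM CM panel the drug efflux genes lie between -0.36 and 2.57, and 8 of 11 organelle genes are called below 0.

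MRP pumps carry conjugates, so the genes that make them were read beside the transporters. Of 26 tested genes of glutathione synthesis and conjugation, 15 were higher and 9 lower in TAM CM than in M0 CM (35.1% and 34.9% of all tested genes), with a median log2 fold change of 0.45. They were 10 and 5 in M1 CM (27.7% and 25.6%, median 0.27), and 8 and 11 in M2 CM (21.0% and 18.5%, median -0.12). Gclc and Gclm, the catalytic and modifier subunits of the first enzyme of glutathione synthesis, went from 126 ± 6.02 to 317 ± 23.5 CPM and from 86.6 ± 3.94 to 230 ± 14.4 CPM in TAM CM. Gclm was also higher in M1 CM (184 ± 8.43 CPM) and M2 CM (130 ± 6.49 CPM), while Gclc was at 128 ± 3.49 CPM in M1 CM and fell to 108 ± 6.17 CPM in M2 CM. The transferase Gsto1 rose from 181 ± 6.22 to 376 ± 13.1 CPM in TAM CM and Gstt1 fell from 42.6 ± 2.81 to 13.4 ± 0.443 CPM. Other conjugating and drug-modifying enzymes were 4 higher and 9 lower of 18 in TAM CM (35.1% and 34.9% of all genes, median -0.36), with the epoxide hydrolase Ephx1 down from 95 ± 2.42 to 29.0 ± 1.64 CPM. They were 4 and 3 in M1 CM (27.7% and 25.6%) and 2 and 6 in M2 CM (21.0% and 18.5%).

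Of 14 tested carriers that bring drugs into cells, 6 were higher and 5 lower in TAM CM, near the 35.1% and 34.9% of all genes. They were 7 and 2 in M1 CM (27.7% and 25.6%), and 6 and 3 in M2 CM (21.0% and 18.5%), where the lower count was 1 without the third M2 CM library. Slc19a1, the reduced folate carrier that takes up methotrexate, rose from 67.6 ± 3.39 to 153 ± 7.06 CPM in TAM CM, and Slc7a5, a large neutral amino acid carrier, from 141 ± 4.63 to 872 ± 26.5 CPM. Slco3a1, an organic anion transporter, fell from 58.3 ± 0.814 to 29.2 ± 2.35 CPM in TAM CM and rose to 89.4 ± 3.23 CPM in M1 CM. Outside the ABC family only 3 of 7 listed drug export genes could be tested. Of these Mvp, the major vault protein, rose from 125 ± 1.53 to 174 ± 7.41 CPM in M1 CM and fell to 98.1 ± 3.15 CPM in TAM CM.

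Among 26 tested transcription regulators linked to efflux genes, 13 were higher and 8 lower in TAM CM (35.1% and 34.9% of all tested genes), 13 and 7 in M1 CM (27.7% and 25.6%), and 9 and 7 in M2 CM (21.0% and 18.5%). Nfe2l2, which encodes NRF2, stood at 182 ± 6.77 CPM in TAM CM beside 189 ± 5.34 CPM in M0 CM (edgeR quasi-likelihood adjusted p = 0.168). RNA of the genes for its small Maf partners rose in TAM CM. Mafk went from 29.5 ± 0.963 to 103 ± 1.79 CPM and Mafg from 95 ± 5.45 to 203 ± 1.80 CPM. Both were also higher in M1 CM, at 54.7 ± 1.7 and 161 ± 4.94 CPM. In M2 CM Mafk was at 34.2 ± 1.89 CPM and Mafg at 97 ± 4.15 CPM. Ahr, the aryl hydrocarbon receptor gene, was lower in all 3 media than in M0 CM, at 31.3 ± 3.11 CPM (M1), 23.5 ± 1.51 CPM (M2) and 23.4 ± 0.877 CPM (TAM) against 48.7 ± 2.82 CPM. Nfkb1 was at 568 CPM in M2 CM against 167 CPM in M0 CM and 122 CPM in TAM CM. Of 7 tested genes for proteins that anchor or modify the pumps at the membrane, 3 were higher and 4 lower in TAM CM (35.1% and 34.9% of all tested genes), with the caveolar Cav1 down from 640 ± 24.3 to 108 ± 4.11 CPM and the kinase gene Pim1 up from 4.81 ± 0.615 to 17.3 ± 0.471 CPM. In M1 CM, Cav1 was at 230 ± 8.63 CPM and Pim1 at 13.6 ± 1.96 CPM. In M2 CM, Cav1 was at 391 ± 9.15 CPM and Pim1 at 3.74 ± 0.85 CPM. Ezr, an actin linker, was highest in M2 CM, at 93.3 ± 4 against 34.5 ± 1.85 CPM in M0 CM. These lists were described by counts and medians alone, and whether their genes move with the transporters beyond the shared difference between media was not tested.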

How the data were processed

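RNA was measured in 12 libraries of SCC7 cells, 3 for each of 4 media, grouped by their titles. The deposited table holds raw read counts per Ensembl gene, with no scaling. Per the submitters' processing notes, HISAT2 2.0 and build mm10 were used. The counting tool, strand setting and annotation release were not given in the sources used here. Symbols (55227 of 55487 genes matched), coordinates and exon lengths came from GENCODE M21 (GRCm38), which may differ from the release the authors used.

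The tests were run with edgeR 4.0.16 (R 4.3.3): filterByExpr (14509 genes kept, the removed ones holding 0.0815% of counts), TMM, glmQLFit (robust) with a mean per medium, and glmQLFTest for 6 comparisons and for the 4 media together. The SE was taken from the F statistic, as log2 fold change divided by its square root. DESeq2 1.42.0 was an alternative, and edgeR was tested on simulated data. Named genes are the 8 members, up to 3 genes per further list with the smallest p over the media, a preset handful of genes (Tap1, Tap2, Abca1, Abcg1, Nfe2l2, Ahr, Gclc, Gclm and Mvp), and the 3 most similar genes for 3 members. Members, lists and tests were chosen with earlier results of these data known, and figures were drawn with matplotlib 3.10.9.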

Additional observations from a re-analysis of the deposited data

How the results depend on the processing

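Counts of members called higher, lower or different among the 4 media stayed within 1.5 times of the reported ones in 243 values. They moved further in 3. The alternatives were DESeq2's Wald test (a likelihood ratio test for the 4 media together), DESeq2 size factors, unscaled libraries and other filters. Further ones were fits of only the media compared, the replicate block and each library left out. With each library left out in turn, members lower in TAM CM than in M0 CM ranged from 1 to 2, and members lower in TAM CM than in M2 CM from 0 to 1, where Abcg2 was the gene lost. Values for single members included those of the summed P-glycoprotein pair, set against Abcb1a and against Abcb1b. Of these 696 values, 690 stayed called or not called as in the main fit. The other 6 lost the call, for Abcc4, Abcg2 and Abcb1b as given above, and the cause was not tested. No called value changed direction, but values not called could change sign. In M2 CM against M0 CM the log2 fold change ranged from -0.04 to 0.10 for Abcg2 and from -0.07 to 0.01 for Abcc4. In M2 CM against M1 CM that of Abcc5 ranged from -0.05 to 0.05. Of the levels per kb, 24 of 32 moved by over 1 SD with transcript length, an alternative added after the values were seen. Of 54 counts on the other lists without the third M2 CM library, also added then, 4 moved by over 1.5 times.

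Replicate numbers are shared across media in the titles, but deviations of same-numbered libraries correlated by -0.0289 to 0.0507, beside -0.0516 to 0.0515 for different numbers. None passed 0.1, so the numbers were not taken as pairs, although 8 of 12 libraries correlated best with one of their own number, a hint from the data and not from the design. With the replicate block, 4 members were higher and 2 lower in TAM CM than in M0 CM, and 5091 and 5093 of all genes, beside 5089 and 5067 without it; no call on a member changed. Depth limits Abcc2 and Abcc3, at 0 to 11 counts per library.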
